A study of Danio rerio with 24 samples.

Results

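The metalloproteinases and their inhibitors were read in bulk poly(A) RNA of sorted zebrafish cells. The group comprised every gene whose symbol begins with mmp, adam or timp followed by a number, or with adamts, apart from mmp9 and mmp13a. These were 56 of the 25067 genes in the table. They were 18 matrix metalloproteinases (MMPs), 15 ADAMs, 14 ADAMTS proteases, 4 ADAMTS-like proteins and 5 tissue inhibitors of metalloproteinases (TIMPs). The rule uses names only.

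MMPs are secreted or membrane-tethered zinc proteases that cut collagens, other matrix proteins and cell surface proteins. ADAMs are transmembrane proteins, most of which release the outer domains of receptors, ligands and adhesion molecules, while some lack the active site and serve in adhesion and signalling. ADAMTS proteases are secreted and cut proteoglycans such as versican and aggrecan or trim procollagens, and TIMPs block these enzymes in varied combinations. In hematopoietic niches such enzymes remodel matrix, release niche ligands and accompany the movement of leukocytes and progenitors.

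The cells came from zebrafish of a double transgenic line with a kdrl:mCherry reporter, active in endothelium, and a CD41:GFP reporter, active in thrombocytes and in hematopoietic stem and progenitor cells (HSPCs), per the series design. Libraries labelled HSPC, libraries labelled endothelial cells (EC) and libraries of double-negative cells with neither reporter (DN, called NC in the titles) came from embryonic tails at 36 hours (hpf), 3 days (dpf) and 4 days after fertilization, with DN libraries at 52 hpf in addition. Kidney HSPC and kidney DN libraries were sorted from CD41:GFP kidney marrow at 3 months post fertilization (mpf), with no kdrl reporter named there. No EC or HSPC sort of the 52 hpf stage was analysed here. Each of the 12 groups had 2 libraries. No label states separate clutches, animals or sorts, so p-values measure only how far these libraries spread, and that spread may be technical. The titles name the caudal hematopoietic tissue, the embryonic HSPC niche in the tail, from 52 hpf on and not at 36 hpf, so differences from 36 hpf may include the dissection. The labels name no mutation, treatment or sex.

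The gene behind each reporter was read first. kdrl encodes a VEGF receptor of endothelium. In libraries labelled EC at 36 hpf its level was 5.16 and 3.68 FPKM (fragments scaled to gene length and library size), against 0.562 and 0.283 FPKM in DN libraries. At 3 dpf kdrl measured 0.333 and 0.323 FPKM in the EC-labelled pair, against 0.257 and 0.387 FPKM in DN libraries, so these groups overlapped and the EC label was not borne out by kdrl at that stage. The CD41 gene itga2b had 6.54 and 7.98 FPKM in libraries labelled HSPC at 3 dpf and 0.428 and 0 FPKM in those of 36 hpf, against 6.55 and 5.72 FPKM in EC-labelled libraries of 3 dpf. At 36 hpf itga2b was at 0 in both EC-labelled and both DN libraries, so the HSPC label was not borne out by itga2b at that stage. Endothelial markers of a 7-gene list that were at 0 in both HSPC libraries at 3 dpf were kdrl, cdh5, flt4 and pecam1. Read numbers recovered from the FPKM values ranged from 1741360 to 21338170 a library. Replicate 2 of EC at 4 dpf had 2483 genes above 0 and replicate 2 of HSPC at 4 dpf had 11265, so the 4 libraries of these 2 groups are given one by one with no test.

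Of the 56 members, 50 reached 1 FPKM in at least 2 of the 20 libraries tested, and the other 6 (adam12, adamts13, adamts15b, adamtsl2, mmp20a and mmp20b) were left out of the tests. A mean of at least 5 FPKM in some group was reached by 32 members and 24 stayed under it. The cut fell between mmp28, whose highest group mean was 4.98 FPKM, and the next member above it at 5.17 FPKM. The 16 members above 0 in every tested library included the widely expressed sheddases adam10a, adam10b and adam17a. Over the mean of the 12 groups the 5 highest were timp2b, adam10b, adam8a, adamts1 and adam10a, at 27.6, 26.7, 26.2, 25 and 23.2 FPKM in turn. Their leading groups differed, as the map of members by library shows. That mean includes the 2 groups of 4 dpf left out of the tests. In EC 4 dpf replicate 2, adam8a was at 193 and timp2b at 93.8 FPKM, while adam10a, adam10b and adamts1 were at 0. The order of the 5, and the place of adam8a among them, thus depend in part on that library.

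**Figure D1:**
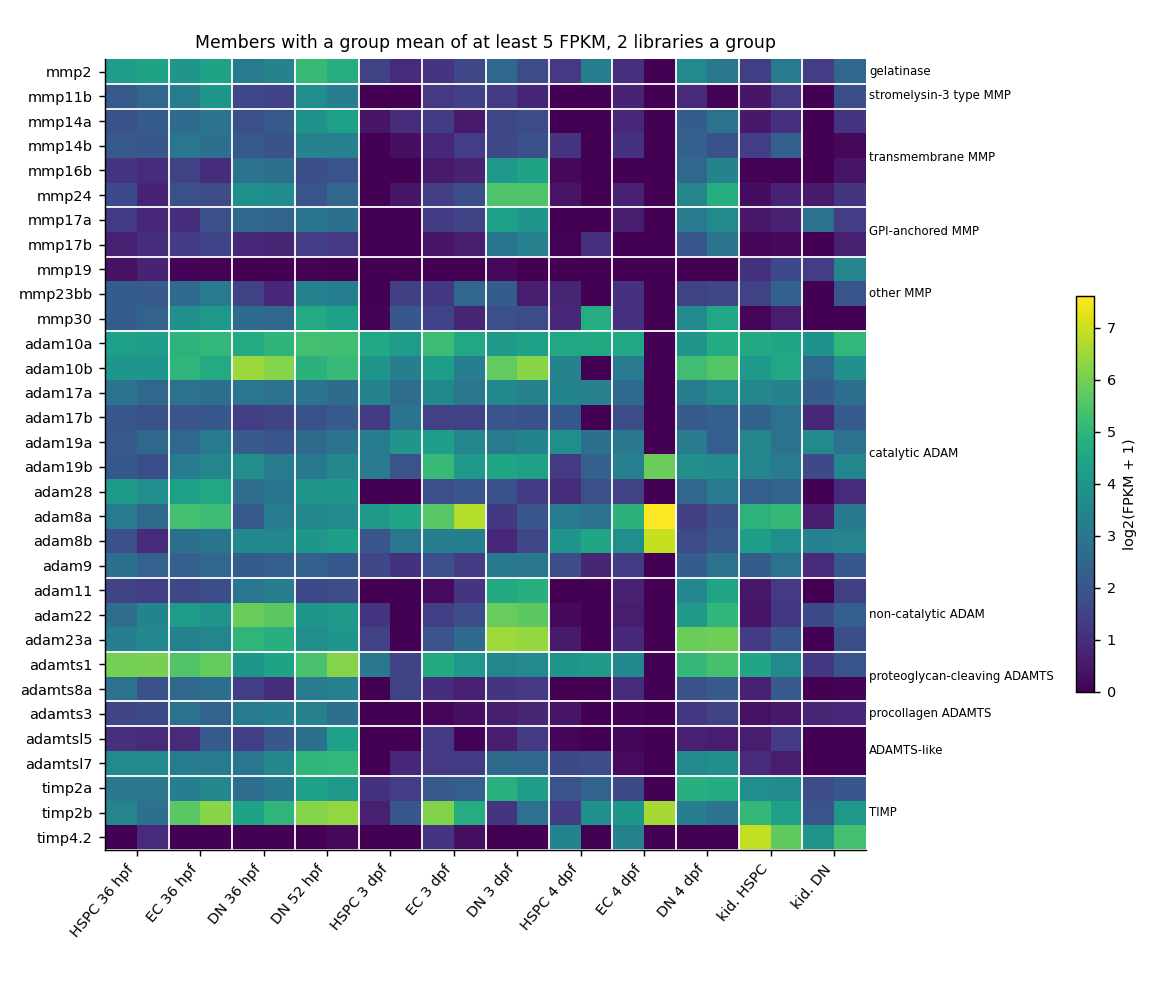
Level of the 32 members with a mean of at least 5 FPKM in some group, as log2(FPKM + 1), with members in rows by role and the 24 libraries in columns, 2 a group. Membrane-bound members such as adam22, adam23a and mmp24 are brightest in DN libraries before 3 mpf, adam8a in libraries labelled EC, and timp4.2 in the 4 kidney libraries.

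Members differed in which family carried the signal. Summed over all ADAMs, the level was 89 and 84.2 FPKM in libraries labelled HSPC at 3 dpf, 185 and 196 FPKM in those labelled EC and 296 and 311 FPKM in DN libraries. Summed MMPs, with mmp9 and mmp13a left out of the group, were at 2.63 and 9.87 FPKM in libraries labelled HSPC at 3 dpf. The same sum gave 16.2 and 19.4 FPKM for the EC label and 111 and 104 FPKM for DN. Both genes left out had the opposite order between EC and DN at 3 dpf. For mmp9 the EC-labelled pair had 964 and 632 FPKM, and the DN pair 26 and 94.4 FPKM. For mmp13a the EC-labelled pair had 659.7 and 353 FPKM, and the DN pair 7.75 and 38.8 FPKM. The lower sum in EC thus holds only for the MMPs counted. The summed TIMPs reached 172 and 85 FPKM in kidney HSPC libraries, against 20.4 and 61.3 FPKM in kidney DN libraries, and most of that was timp4.2. Only 25 and 24 of the 56 members were above 0 in libraries labelled HSPC at 3 dpf, which had 13459 and 13274 genes above 0 in all. In DN libraries of that stage 53 and 49 members were above 0, with 21080 and 19317 genes above 0 in all. The lower member counts thus came with fewer genes of any kind detected.

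The tests below are limma fits to log2(FPKM + 1) over 20 libraries, and a member is called where its p, adjusted by Benjamini-Hochberg over all 20931 genes tested, is below 0.05 and its log2 fold change is 1 or more in either direction. A fold change is given as log2 of the first-named group over the second on that scale, ± its standard error, and understates the change of low genes. In bulk RNA, fewer cells of a type and less RNA per cell cannot be told apart. Comparisons of EC and of HSPC with DN share the DN libraries, and the stages share libraries too. Statements below that libraries of 2 groups did not overlap mostly describe members picked for their calls. They are no added support, and the share over all genes is not given.

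In double-negative tail cells some members were lower and others higher at 3 dpf than at 52 hpf. The lower ones included mmp2, mmp14a, mmp30, the ADAMTS-like gene adamtsl7 and the inhibitor timp2b. The higher ones included adam11, adam22 and adam23a, whose mammalian relatives are best known from brain, and the membrane-type mmp16b and mmp24. Of the 50 members tested, 8 were higher and 17 lower at 3 dpf than at 52 hpf, with 28.8% of all genes called (18% higher and 10.8% lower). The median log2 fold change was -0.56 over the members and 0.17 over all genes tested. No named member reversed in any alternative tried, and 19 of the 25 calls were kept without each single library in turn. By family, 6 of 16 MMPs were lower and 4 higher, 4 of 14 ADAMs lower and 4 higher, 6 of 15 ADAMTS and ADAMTS-like members lower and 0 higher, and 1 of 5 TIMPs lower and 0 higher.

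Among the MMPs, mmp2, a gelatinase, was at 7.8 and 9.51 FPKM at 36 hpf and 33.7 and 25.9 FPKM at 52 hpf. It was at 4.83 and 2.35 FPKM at 3 dpf and then 11.2 and 7.32 FPKM at 4 dpf. Both 52 hpf libraries stood above all others, and the log2 fold change at 3 dpf against 52 hpf was -2.79 ± 0.51, adjusted p = 0.000759. mmp14a, a membrane-type MMP related to the mammalian activator of MMP2, was at 2.62 and 3.48, 14.1 and 19, 2.1 and 2.3 and 3.61 and 6.16 FPKM at the same 4 stages. The 3 dpf change was -2.44 ± 0.44, adjusted p = 0.000658, and its paralog mmp14b was at 9.44 and 8.86 FPKM at 52 hpf. mmp11b, of the stromelysin-3 type, was at 1.56 and 0.776 FPKM at 3 dpf, against 12.3 and 8.45 FPKM at 52 hpf (-2.39 ± 0.53, adjusted p = 0.00292). mmp30 was at 2.61 and 2.35 FPKM at 3 dpf, against 23.8 and 18.8 FPKM at 52 hpf (-2.67 ± 0.51, adjusted p = 0.0011). In none of these did libraries of the 2 stages overlap.

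Of the ADAMTS and ADAMTS-like members 9 of 15 were not called between these stages. Among the 6 lower ones, adamtsl7, a protein without a protease domain, was at 5.22 and 4.99 FPKM at 3 dpf, against 30.2 and 31.9 FPKM at 52 hpf (-2.39 ± 0.34, adjusted p = 0.000139). adamtsl5 was at 0.523 and 1.46 FPKM at 3 dpf, against 5.98 and 18.7 FPKM at 52 hpf, and its later libraries stayed low (-2.60 ± 0.53, adjusted p = 0.00171). adamts3, a procollagen protease that in zebrafish also takes part in the processing of Vegfc, was at 0.55 and 0.776 FPKM at 3 dpf, against 9 and 5.83 FPKM at 52 hpf (-2.32 ± 0.33, adjusted p = 0.000128). It was already at 7.89 and 8.64 FPKM at 36 hpf, so both earlier stages stood above both later ones. adamts1, which cuts versican and aggrecan, was at 15.2 and 20.2 FPKM at 36 hpf, 41.7 and 71.3 FPKM at 52 hpf, 10.1 and 11 FPKM at 3 dpf and then 32.6 and 40.6 FPKM at 4 dpf, and the 3 dpf libraries were the lowest (-2.27 ± 0.44, adjusted p = 0.00111 against 52 hpf).

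Among the inhibitors, timp2b was at 20.2 and 30.3 FPKM at 36 hpf, 73.5 and 82.3 FPKM at 52 hpf, 1.21 and 6.26 FPKM at 3 dpf and then 8.54 and 6.46 FPKM at 4 dpf. Its change at 3 dpf was -4.30 ± 0.67, adjusted p = 0.000242. Its paralog timp2a did not follow it after 52 hpf, with 5.57 and 7.42, 19.4 and 16.3, 27.6 and 18.3 and 26.4 and 24.6 FPKM at those stages and no call between 52 hpf and 3 dpf (0.32 ± 0.29, adjusted p = 0.455). adam28 was at 2.76 and 1.57 FPKM at 3 dpf, against 14.7 and 15 FPKM at 52 hpf (-2.35 ± 0.37, adjusted p = 0.000267). adam8b, a paralog of adam8a, was at 0.801 and 2.06 FPKM at 3 dpf, against 15.2 and 17.8 FPKM at 52 hpf (-2.89 ± 0.40, adjusted p = 0.000109).

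**Figure D2:**
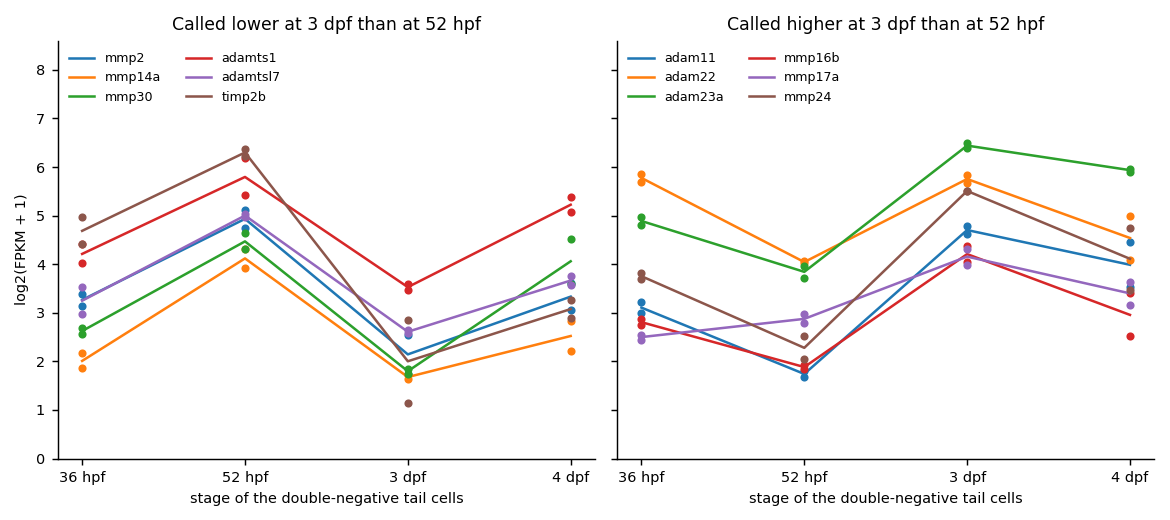
Level of 6 members called lower (left) and 6 called higher (right) at 3 dpf than at 52 hpf, chosen for those calls, in double-negative tail cells over 4 stages, as log2(FPKM + 1); points are libraries, 2 a stage, and lines join stage means. The left set is highest at 52 hpf and lowest at 3 dpf, while the right set is highest at 3 dpf except that adam22 is about as high at 36 hpf.

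Of the ADAMs without an active site, all 3 (adam11, adam22 and adam23a) were called higher at 3 dpf. In mammals ADAM22 and ADAM23 bind LGI proteins at synapses. adam11 was at 23.5 and 26.7 FPKM at 3 dpf, against 2.21 and 2.48 FPKM at 52 hpf (2.96 ± 0.48, adjusted p = 0.000317). adam23a was at 88.7 and 83.2 FPKM at 3 dpf, against 12.2 and 14.6 FPKM at 52 hpf (2.60 ± 0.52, adjusted p = 0.00137). adam22 was at 57.3 and 50.5 FPKM at 36 hpf, 15.2 and 15.8 FPKM at 52 hpf, 56.1 and 50 FPKM at 3 dpf and then 15.9 and 31 FPKM at 4 dpf, a dip at 52 hpf rather than a steady rise. All 4 libraries at 36 hpf and 3 dpf stood above all 4 at the other stages.

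Transmembrane MMPs were split, with mmp24 and mmp16b higher and mmp14a and mmp14b lower at 3 dpf. mmp24 (MT5-MMP, abundant in brain) was at 44.7 and 44.3 FPKM at 3 dpf, against 3.11 and 4.73 FPKM at 52 hpf (3.23 ± 0.45, adjusted p = 0.000115). mmp16b was at 15.5 and 19.7 FPKM at 3 dpf, against 2.57 and 2.81 FPKM at 52 hpf (2.33 ± 0.36, adjusted p = 0.000243). The GPI-anchored mmp17b was at 6.7 and 8.93 FPKM at 3 dpf, against 1.63 and 1.42 FPKM at 52 hpf (1.79 ± 0.35, adjusted p = 0.00129). Both 3 dpf libraries lay above both 52 hpf libraries in each. The related mmp17a, at 19 and 14.9 FPKM at 3 dpf and 6.81 and 5.89 FPKM at 52 hpf (1.28 ± 0.45, adjusted p = 0.0398), lost its call without any single library, at adjusted p from 0.0856 (without DN 3 dpf replicate 2) through 0.113 and 0.176 (without 52 hpf replicate 1 or 2) to 0.192 (without DN 3 dpf replicate 1).

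Markers of other cells differed between the same DN libraries. The summed level of 6 neural markers was 1581 and 1442 FPKM at 36 hpf, 740.4 and 682 FPKM at 52 hpf, 2318 and 2120.2 FPKM at 3 dpf and then 1550 and 1421 FPKM at 4 dpf, and 4 of the 6 were higher and 1 lower at 3 dpf than at 52 hpf. The summed level of the 6 mesenchyme markers in the table (7 were listed) was 439.9 and 515 FPKM at 36 hpf, 2378 and 1876 FPKM at 52 hpf, 424 and 244 FPKM at 3 dpf and then 872 and 920.2 FPKM at 4 dpf, and 5 of the 6 were lower at 3 dpf. Summed neutrophil markers were at 88.6 and 145 FPKM at 3 dpf, against 759.8 and 1021 FPKM at 52 hpf, with 6 of 6 lower. Erythroid markers summed to 3558 and 3745 FPKM at 36 hpf, 75869 and 71689 FPKM at 52 hpf, 3394 and 7015 FPKM at 3 dpf and then 9050 and 7976 FPKM at 4 dpf, with 5 of 5 higher at 52 than at 36 hpf and 5 of 5 lower at 3 dpf than at 52 hpf. Thrombocyte markers summed to 21.3 and 28.6 FPKM at 3 dpf, against 275 and 295 FPKM at 52 hpf (4 of 5 lower), and notochord and cartilage markers to 22 and 19.6 FPKM, against 783 and 644 FPKM (3 of 6 lower). Of epidermis markers 4 of 6 were lower too, and of skeletal muscle markers 3 of 6. No neural, mesenchyme, neutrophil or erythroid marker was at 0 in both libraries at any of these stages, and of the thrombocyte markers mpl was at 0 in both libraries from 52 hpf on. The part of such cells in the members' courses was not tested.

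From 36 to 52 hpf, 11 members were higher and 3 lower in DN libraries, with 10.6% of all genes called (4.79% higher and 5.77% lower). Among the higher ones were mmp14a (2.11 ± 0.44, adjusted p = 0.0068), adamts8a (2.04 ± 0.52, adjusted p = 0.0197) and adamtsl7 (1.75 ± 0.34, adjusted p = 0.00459). timp2a rose too (1.34 ± 0.29, adjusted p = 0.00862), while adam22 (-1.73 ± 0.43, adjusted p = 0.0167) and mmp24 (-1.47 ± 0.45, adjusted p = 0.0452) fell. These calls rested on both libraries of each stage. Without 36 hpf replicate 1 or 52 hpf replicate 2, 0 of the 14 were kept, at adjusted p up to 0.277 and 0.405. Without 36 hpf replicate 2 or 52 hpf replicate 1, 3 were kept, with the others at up to 0.201 and 0.257. Between 3 and 4 dpf 1 member was called, mmp30, at 11.1 and 22 FPKM at 4 dpf and 2.61 and 2.35 FPKM at 3 dpf (2.27 ± 0.51, adjusted p = 0.0402), with 1.44% of all genes called (1.21% higher and 0.225% lower). That call was lost without any single library, at adjusted p = 0.136 and 0.209 without 3 dpf replicate 1 or 2 and 0.0964 and 0.233 without 4 dpf replicate 1 or 2.

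At 36 hpf, libraries labelled EC and libraries labelled HSPC both had more adamts1 and adam28, and less adam10b, adam22, mmp16b and mmp24, than DN libraries. Of the 50 members tested, 6 were higher and 4 lower in libraries labelled EC than in DN libraries (6 and 6 under median-of-ratios scaling), with 11.2% of all genes called (6.37% higher and 4.8% lower). In libraries labelled HSPC, 3 were higher and 11 lower than in DN libraries, with 20.5% of all genes called (8.27% higher and 12.2% lower). adamts1 was at 63.4 and 64.9 FPKM in libraries labelled HSPC and 45.1 and 55 FPKM in those labelled EC, against 15.2 and 20.2 FPKM in DN libraries (1.81 ± 0.44, adjusted p = 0.00757 for HSPC and 1.45 ± 0.44, adjusted p = 0.0402 for EC). The EC call missed the threshold under median-of-ratios scaling (adjusted p = 0.0507). adamts1 was the highest member in libraries labelled HSPC, and none of the 4 reporter libraries overlapped DN. adam28 was at 16.5 and 12.1 FPKM in libraries labelled HSPC and 18.4 and 22.5 FPKM in those labelled EC, against 5.6 and 6.74 FPKM in DN libraries (1.09 ± 0.37, adjusted p = 0.0475 for HSPC and 1.58 ± 0.37, adjusted p = 0.0125 for EC).

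adam8a, a sheddase that in mammals is carried by leukocytes, was called for EC and not for HSPC. Its level was 7.94 and 5.19 FPKM in libraries labelled HSPC and 38.8 and 36.2 FPKM in those labelled EC, against 3.37 and 8.04 FPKM in DN libraries. Both libraries labelled EC stood above the other 4, by 2.61 ± 0.60, adjusted p = 0.0112 against DN and with HSPC lower than EC (-2.37 ± 0.60, adjusted p = 0.0411). timp2b was also highest in EC, at 9.98 and 5.96 FPKM in libraries labelled HSPC and 48.9 and 75.6 FPKM in those labelled EC, against 20.2 and 30.3 FPKM in DN libraries. It was lower in HSPC than in EC (-2.82 ± 0.67, adjusted p = 0.0292), while EC against DN was not called (1.26 ± 0.67, adjusted p = 0.257). timp4.1 was at 0.39 and 0.0378 FPKM in libraries labelled HSPC and 3.21 and 3.34 FPKM in those labelled EC, against 0.319 and 0.38 FPKM in DN libraries. It was low outside EC (1.66 ± 0.27, adjusted p = 0.00128 against DN). mmp11b measured 8.09 and 15.2 FPKM in the EC-labelled pair, against 2.17 and 1.96 FPKM in DN libraries (1.99 ± 0.53, adjusted p = 0.0232). HSPC against EC gave 3 calls in all, each lower, with 3.33% of all genes called (1.4% higher and 1.94% lower).

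Among the members lower in the reporter libraries, adam10b, a paralog of the ADAM10 sheddase, was at 15 and 15 FPKM in libraries labelled HSPC and 30.1 and 23.8 FPKM in those labelled EC, against 86.6 and 72.1 FPKM in DN libraries (-2.32 ± 0.40, adjusted p = 0.00101 for HSPC and -1.53 ± 0.40, adjusted p = 0.0223 for EC). Its paralog adam10a was not called for HSPC (-0.50 ± 0.35, adjusted p = 0.337) or EC (0.18 ± 0.35, adjusted p = 0.834), at 18.6 and 18.2 FPKM in libraries labelled HSPC and 29 and 31.4 FPKM in those labelled EC, against 23.8 and 29.6 FPKM in DN libraries. mmp24 was at 2.26 and 0.681 FPKM in libraries labelled HSPC and 2.59 and 2.34 FPKM in those labelled EC, against 13.1 and 11.9 FPKM in DN libraries (-2.53 ± 0.45, adjusted p = 0.00117 for HSPC). adam22 was at 5.55 and 9.7 FPKM in libraries labelled HSPC and 17.1 and 14.2 FPKM in those labelled EC, against 57.3 and 50.5 FPKM in DN libraries (-2.71 ± 0.43, adjusted p = 0.000502 for HSPC). adam8b differed from adam8a in being lower in HSPC, at 2.61 and 0.87 FPKM, against 10.8 and 10.8 FPKM in DN libraries (-2.18 ± 0.40, adjusted p = 0.00143). adamts3 was lower in HSPC as well, at 1.99 and 2.25 FPKM, against 7.89 and 8.64 FPKM in DN libraries (-1.57 ± 0.33, adjusted p = 0.00331).

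Many 36 hpf calls rested on having both libraries of each group. Without replicate 1 or 2 of EC, 8 and 9 of the 10 calls of EC against DN were lost, and without replicate 1 or 2 of DN 9 and 8. The adjusted p of named members then reached 0.122, 0.241, 0.257 and 0.124 in the same order. The call kept without each library was timp4.1. It was lost under some other alternative, as 0 of the 10 calls were kept in every one. Of the 14 calls of HSPC against DN, 6 were kept without each library, among them adam10b, adam22, adam8b, adamts3, mmp16b and mmp24. adam11, adam19b, adam23a and adam28 were lost without any 1 of the 4 libraries, at adjusted p up to 0.252 (without HSPC replicate 1), 0.192 (HSPC replicate 2), 0.246 (DN replicate 1) and 0.134 (DN replicate 2), and adamts1 was lost without HSPC replicate 2 (adjusted p = 0.0526) or DN replicate 1 (0.0812). For HSPC against EC, adam8a and timp2b were lost without any 1 library, at adjusted p up to 0.118 and 0.306 without HSPC replicate 1 or 2 and 0.273 and 0.214 without EC replicate 1 or 2.

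Marker sums at 36 hpf moved with both directions. Neural markers summed to 337 and 353 FPKM in libraries labelled HSPC and 609.6 and 518 FPKM in those labelled EC, against 1581 and 1442 FPKM in DN libraries. Neutrophil markers summed to 969 and 783 FPKM in libraries labelled HSPC and 2177 and 3488 FPKM in those labelled EC, against 53.7 and 46.6 FPKM in DN libraries, and no listed neutrophil gene was at 0 in both libraries of a group. Notochord and cartilage markers summed to 483 and 511 FPKM in libraries labelled HSPC and 565 and 1266 FPKM in those labelled EC, against 59.9 and 73.6 FPKM in DN libraries. Epidermis markers summed to 11873 and 12878 FPKM in libraries labelled HSPC and 6099 and 7596 FPKM in those labelled EC, against 7394 and 8458 FPKM in DN libraries, with 0 of 6 called. HSPC markers summed to 51.7 and 31.2 FPKM in libraries labelled HSPC, 56 and 58.5 FPKM in those labelled EC and 20.8 and 20 FPKM in DN libraries. Of these, 2 of 6 were higher in HSPC than in DN and 0 higher than in EC. Endothelial markers summed to 204 and 132 FPKM in libraries labelled EC. They summed to 27.7 and 13.2 FPKM in those labelled HSPC and 27.6 and 33.9 FPKM in DN libraries. Of these 7, 6 were higher and 0 lower in EC than in DN, and 0 higher and 4 lower in HSPC than in EC. Most of the sum in EC was aqp1a.1, at 154 and 103 FPKM. Erythroid markers summed to 855 and 953 FPKM in libraries labelled HSPC and 12284 and 9168 FPKM in those labelled EC. In DN libraries they summed to 3558 and 3745 FPKM. Of these 5, 3 were higher and 0 lower in EC than in DN, and 0 higher and 4 lower in HSPC than in EC. The part of such cells in the members' differences was not tested.

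At 3 dpf adam8a, adam8b and timp2b were higher in libraries labelled EC than in DN libraries, and adam8a and adam8b were higher in libraries labelled HSPC. The 3 ADAMs without an active site, the membrane-type mmp16b and mmp24, the GPI-anchored mmp17a and mmp17b, and timp2a were lower in both. Against DN, 3 members were higher and 13 lower in libraries labelled EC, with 38.9% of all genes called (15.2% higher and 23.8% lower), and 2 were higher and 16 lower in libraries labelled HSPC, with 45.4% of all genes called (14.1% higher and 31.4% lower). A member share of 32% for EC and 36% for HSPC was thus below the share over all genes, so the counts by themselves say nothing about the group. The EC label is not borne out by kdrl here, so the direction applies to the libraries so labelled. Of these calls 13 of 16 for EC and 15 of 18 for HSPC were kept without each single library.

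adam8a was at 16 and 21 FPKM in libraries labelled HSPC and 48.3 and 107 FPKM in those labelled EC, against 1.33 and 3.13 FPKM in DN libraries. The 3 groups did not overlap, and the change against DN was 4.56 ± 0.60, adjusted p = 1.65e-05 for EC and 2.64 ± 0.60, adjusted p = 0.00167 for HSPC. HSPC against EC was not called (-1.92 ± 0.60, adjusted p = 0.0705). adam8b was at 3.05 and 6.89 FPKM in libraries labelled HSPC and 8.43 and 8.63 FPKM in those labelled EC, against 0.801 and 2.06 FPKM in DN libraries (2.02 ± 0.40, adjusted p = 0.000616 for EC and 1.27 ± 0.40, adjusted p = 0.0151 for HSPC). The HSPC call of adam8b was lost without HSPC 3 dpf replicate 2 (0.183) or DN 3 dpf replicate 1 (0.16), with adjusted p in brackets. timp2b, a paralog of the TIMP2 that in mammals binds MMP14 and takes part in the activation of MMP2, was at 0.588 and 3.08 FPKM in libraries labelled HSPC and 69.8 and 25.2 FPKM in those labelled EC, against 1.21 and 6.26 FPKM in DN libraries. Libraries labelled EC stood above the rest (3.43 ± 0.67, adjusted p = 0.000572 against DN), and HSPC was lower than EC (-4.08 ± 0.67, adjusted p = 0.00138).

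**Figure D3:**
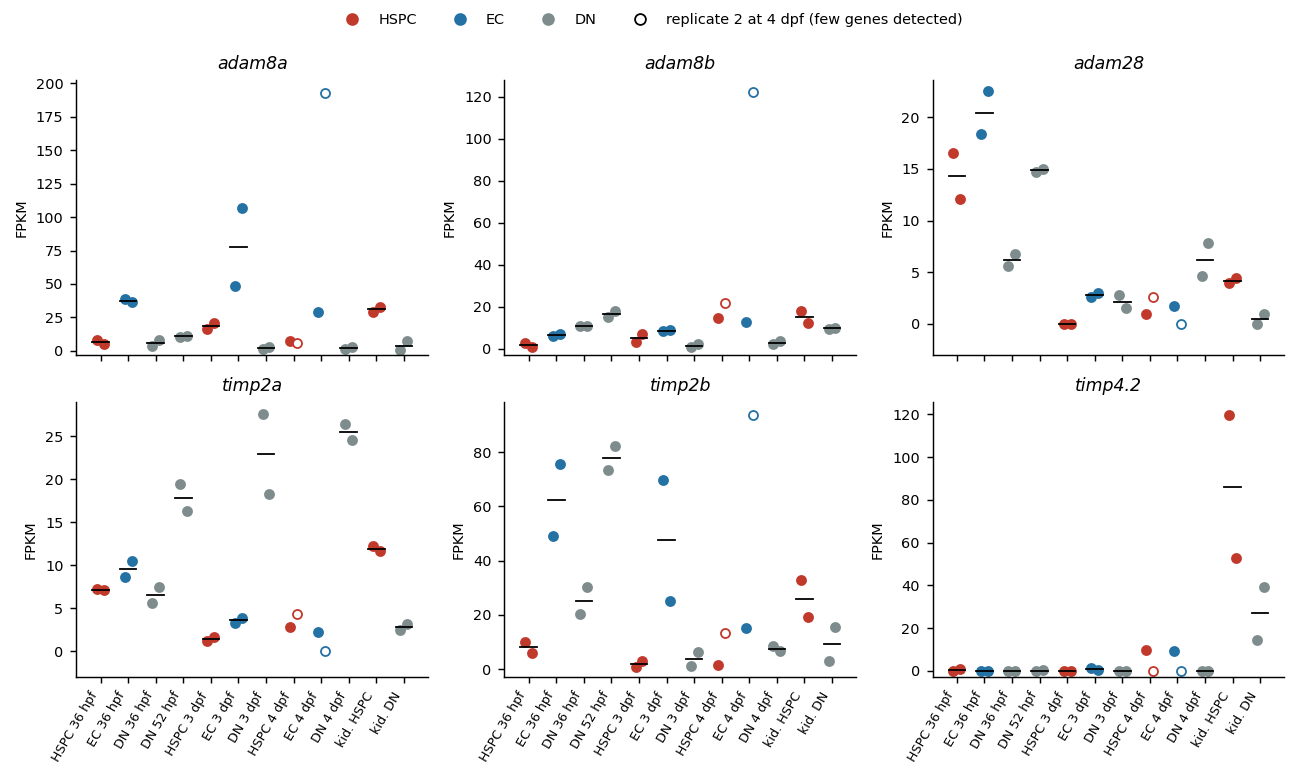
Level of adam8a, adam8b, adam28, timp2a, timp2b and timp4.2 in FPKM on a linear axis in each of the 24 libraries, with groups named HSPC, EC and DN after their labels; points are libraries, lines are means of 2, and open points are the 2 replicate 2 libraries of 4 dpf with few genes detected, whose groups have no mean line. adam8a is highest in libraries labelled EC, except that EC 4 dpf replicate 1 (28.8 FPKM) lies below both kidney HSPC libraries (29.2 and 32.9 FPKM). timp2b is high in DN at 52 hpf and in most libraries labelled EC. It is at 25.2 FPKM in EC 3 dpf replicate 2 and 15.3 FPKM in EC 4 dpf replicate 1, against 32.7 FPKM in kidney HSPC replicate 1. adam28 is low in every group at 3 dpf, and timp4.2 is high in the kidney.

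Leukocyte markers were high in the same libraries. Neutrophil markers summed to 4545 and 4316 FPKM in libraries labelled HSPC and 10553 and 10323 FPKM in those labelled EC, against 88.6 and 145 FPKM in DN libraries, with 6 of 6 higher in EC and 5 of 6 in HSPC. mpx, myeloperoxidase, was at 98.4 and 92.2 FPKM in libraries labelled HSPC and 261 and 339 FPKM in those labelled EC, against 4.28 and 7.81 FPKM in DN libraries. Macrophage markers summed to 2.65 and 3.19 FPKM in libraries labelled HSPC and 21 and 41.2 FPKM in those labelled EC, against 1.41 and 0.161 FPKM in DN libraries, with marco, mfap4, c1qa and c1qb at 0 in both HSPC libraries. Endothelial markers summed to 54.6 and 45 FPKM in libraries labelled HSPC and 84.1 and 67.8 FPKM in those labelled EC, against 11.4 and 25.2 FPKM in DN libraries. Of the 7, only 2 were called higher in EC and 1 in HSPC, with 0 lower. Most of each sum was fli1a and aqp1a.1, at 31.7 and 32.7 and at 48.4 and 32.5 FPKM in libraries labelled EC. cdh5 was at 0.157 and 0.378 FPKM there. Notochord and cartilage markers summed to 219 and 217 FPKM in libraries labelled EC. They summed to 6.57 and 2.44 FPKM in those labelled HSPC and 22 and 19.6 FPKM in DN libraries. Of these 6, 3 were higher and 0 lower in EC than in DN, and 0 higher and 3 lower in HSPC. HSPC markers were higher than in DN for 5 of 6 in EC and in HSPC. Thrombocyte markers were higher for 5 of 5 and 4 of 5, with 0 lower. Whether leukocytes or other such cells carry the adam8a, adam8b and timp2b signal was not tested.

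The members with the largest falls against DN included adam23a, mmp24 and adam22. adam23a was at 1.78 and 0 FPKM in libraries labelled HSPC and 2.88 and 5.33 FPKM in those labelled EC, against 88.7 and 83.2 FPKM in DN libraries (-5.71 ± 0.52, adjusted p = 1.89e-07 for HSPC and -4.13 ± 0.52, adjusted p = 9.41e-06 for EC). mmp24 was at 0 and 0.387 FPKM in libraries labelled HSPC and 1.59 and 2.56 FPKM in those labelled EC, against 44.7 and 44.3 FPKM in DN libraries (-5.27 ± 0.45, adjusted p = 1.07e-07 for HSPC). adam22 was at 1.19 and 0 FPKM in libraries labelled HSPC and 1.64 and 2.46 FPKM in those labelled EC, against 56.1 and 50 FPKM in DN libraries (-5.19 ± 0.43, adjusted p = 7.09e-08 for HSPC). In each the DN libraries lay far above both reporter groups. Several were listed at 0 in both libraries labelled HSPC, where the fitted value depends on the pseudocount. A floor of 3 reads a library gives a fold instead, which covers read sampling and not differences between libraries. In that pair adam22 had 57 and 0 reads and adam23a 58 and 0, so such folds are not lower bounds. Set to that floor, adam11 was 280-fold lower in libraries labelled HSPC than its mean in DN libraries, mmp16b 182-fold, mmp17b 175-fold and mmp17a 89.7-fold lower. Neural markers summed to 3.79 and 13.7 FPKM in libraries labelled HSPC and 80.9 and 137 FPKM in those labelled EC, against 2318 and 2120.2 FPKM in DN libraries, with gfap at 0 in both HSPC libraries, and their part was not tested.

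timp2a went the other way from timp2b, at 1.17 and 1.63 FPKM in libraries labelled HSPC and 3.34 and 3.89 FPKM in those labelled EC, against 27.6 and 18.3 FPKM in DN libraries (-3.30 ± 0.29, adjusted p = 1.4e-07 for HSPC and -2.35 ± 0.29, adjusted p = 8.44e-06 for EC). The 2 paralogs thus had opposite differences between libraries labelled EC and DN. adam10b was at 15.2 and 8.45 FPKM in libraries labelled HSPC and 17.7 and 8.54 FPKM in those labelled EC, against 53.4 and 74.5 FPKM in DN libraries (-2.37 ± 0.40, adjusted p = 0.000127 for HSPC and -2.26 ± 0.40, adjusted p = 0.000253 for EC). adam10a, its paralog, was not called for either (0.18 ± 0.35, adjusted p = 0.726 for HSPC and 0.66 ± 0.35, adjusted p = 0.152 for EC). adamtsl7 was at 0 and 0.812 FPKM in libraries labelled HSPC and 1.4 and 1.54 FPKM in those labelled EC, against 5.22 and 4.99 FPKM in DN libraries (-2.18 ± 0.34, adjusted p = 5.75e-05 for HSPC). adam9 was at 2.05 and 1.17 FPKM in libraries labelled HSPC and 2.63 and 1.57 FPKM in those labelled EC, against 7.38 and 7.25 FPKM in DN libraries. Its call for EC (-1.44 ± 0.42, adjusted p = 0.0105) was lost without EC replicate 2 (adjusted p = 0.0922) or DN replicate 1 (0.0516).

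**Figure D4:**
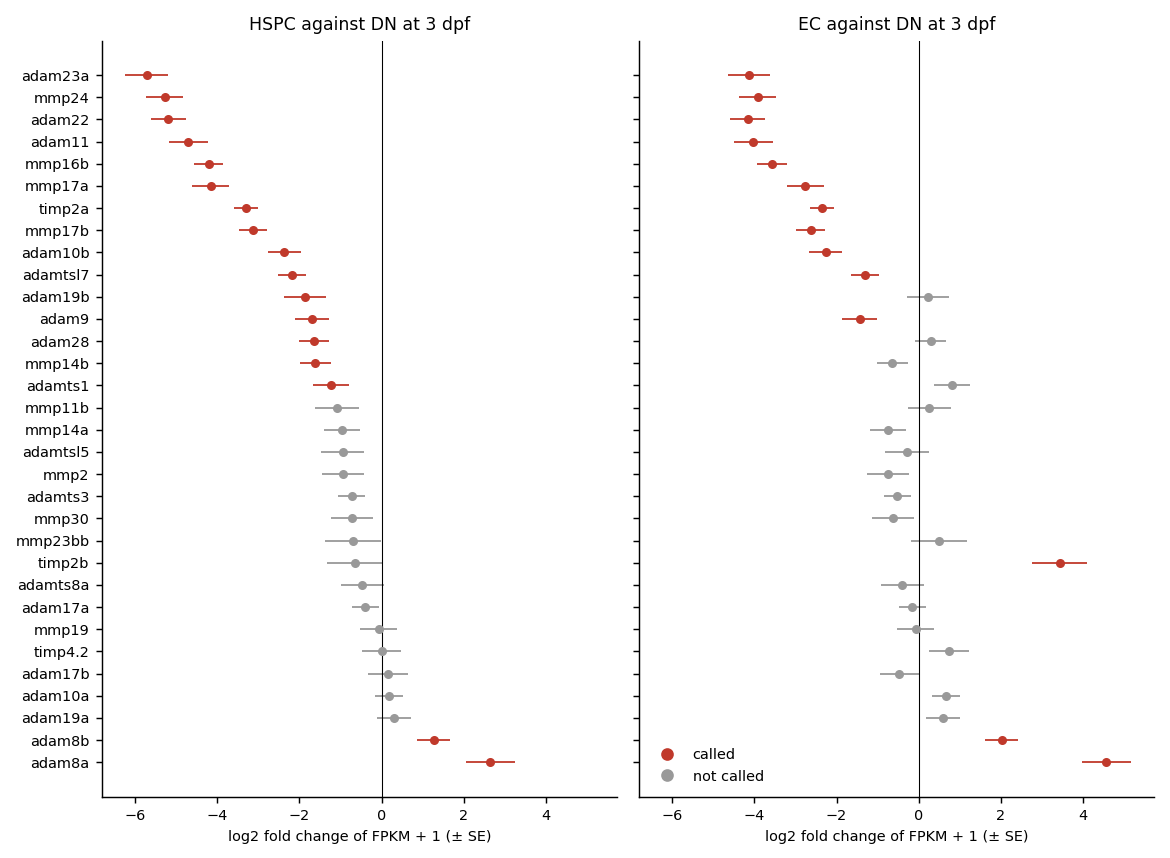
Log2 fold change of FPKM + 1 with its standard error at 3 dpf for the 32 members with a group mean of at least 5 FPKM, libraries labelled HSPC (left) and labelled EC (right) against the same DN libraries; red points are called. adam11, adam22, adam23a, mmp24 and mmp16b lie to the left in both panels, adam8a and adam8b to the right in both, and timp2b to the right in the EC panel.

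Between the reporter groups at 3 dpf, 4 members were lower and 0 higher in libraries labelled HSPC than in those labelled EC, with 6.75% of all genes called (0.564% higher and 6.18% lower). Besides timp2b they were adamts1, adam19b and adam28, the last listed at 0 in both libraries labelled HSPC. adamts1 was at 7.23 and 1.96 FPKM in libraries labelled HSPC, against 23.7 and 15.6 FPKM in those labelled EC (-2.04 ± 0.44, adjusted p = 0.00924). adam19b was at 7.64 and 2.87 FPKM in libraries labelled HSPC, against 33.9 and 16.3 FPKM in those labelled EC (-2.09 ± 0.51, adjusted p = 0.02). Neither overlapped, but both calls were lost without HSPC replicate 2 (adjusted p = 0.108 and 0.169) or EC replicate 1 (0.107 and 0.224). adam28 measured 2.6 and 3.02 FPKM in the EC-labelled pair, with a mean 26.1-fold above the floor of 3 reads in libraries labelled HSPC.

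Between 36 hpf and 3 dpf most called members fell in both reporter groups. In libraries labelled HSPC, 2 were higher and 20 lower at 3 dpf, with 37.5% of all genes called (11.6% higher and 25.9% lower), and in libraries labelled EC 0 were higher and 17 lower, with 24.5% of all genes called (7.09% higher and 17.4% lower). The share was 44% and 34% of the 50 members. The median log2 fold change in HSPC was -1.0 over the members and -0.31 over all genes, and in EC -0.85 and -0.13. The dissection may differ between these stages. Both higher members of HSPC were lost under median-of-ratios scaling, where 0 were higher and 24 lower.

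adam28 was listed at 0 in both libraries labelled HSPC at 3 dpf, against 16.5 and 12.1 FPKM at 36 hpf, or 133-fold lower when set to the floor of 3 reads a library. In libraries labelled EC it was at 2.6 and 3.02 FPKM at 3 dpf, against 18.4 and 22.5 FPKM at 36 hpf (-2.49 ± 0.37, adjusted p = 0.000163). adamts1 was at 7.23 and 1.96 FPKM in libraries labelled HSPC at 3 dpf, against 63.4 and 64.9 FPKM at 36 hpf (-3.72 ± 0.44, adjusted p = 6.26e-06). Both genes were among the 5 highest members of HSPC at 36 hpf, and no library of 1 stage overlapped the other. adamtsl7 was at 0 and 0.812 FPKM in libraries labelled HSPC at 3 dpf, against 11.1 and 11.3 FPKM at 36 hpf (-3.18 ± 0.34, adjusted p = 2.83e-06). mmp2 was at 1.81 and 0.877 FPKM in libraries labelled HSPC at 3 dpf, against 17.9 and 19.8 FPKM at 36 hpf (-3.11 ± 0.51, adjusted p = 0.000155). In libraries labelled EC mmp2 was at 1.22 and 2.11 FPKM at 3 dpf, against 14.6 and 19.7 FPKM at 36 hpf (-2.77 ± 0.51, adjusted p = 0.000811). The gelatinase thus fell in both reporter groups with no overlap between stages.

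In libraries labelled EC, mmp30 was at 1.9 and 0.761 FPKM at 3 dpf, against 13 and 15.5 FPKM at 36 hpf (-2.75 ± 0.51, adjusted p = 0.000932). adamts3 was at 0.0902 and 0.231 FPKM at 3 dpf, against 6.15 and 4.35 FPKM at 36 hpf (-2.42 ± 0.33, adjusted p = 7.54e-05). timp4.1 was at 0 and 0.0615 FPKM at 3 dpf, against 3.21 and 3.34 FPKM at 36 hpf (-2.05 ± 0.27, adjusted p = 6.28e-05). In each both 3 dpf libraries lay below both 36 hpf libraries. The membrane-type mmp14a and mmp14b were lower as well (-1.84 ± 0.44, adjusted p = 0.00521, and -1.76 ± 0.38, adjusted p = 0.00247), as were mmp11b (-2.24 ± 0.53, adjusted p = 0.00504) and adamts8a (-1.80 ± 0.52, adjusted p = 0.017). mmp11b and mmp14a were lost without EC 36 hpf replicate 2 (adjusted p = 0.0726 and 0.05), mmp14a also without EC 3 dpf replicate 2 (0.0686). adamts8a was lost without EC 36 hpf replicate 1 or 2 (adjusted p = 0.0623 and 0.106) or 3 dpf replicate 1 or 2 (0.054 and 0.101).

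Of the 5 inhibitors tested in libraries labelled HSPC, timp2a and timp2b were lower at 3 dpf and 3 were not called. timp2a was at 1.17 and 1.63 FPKM at 3 dpf, against 7.2 and 7.1 FPKM at 36 hpf (-1.77 ± 0.29, adjusted p = 0.000154). timp2b was at 0.588 and 3.08 FPKM at 3 dpf, against 9.98 and 5.96 FPKM at 36 hpf, a call (-1.78 ± 0.67, adjusted p = 0.0448) lost without HSPC 3 dpf replicate 1 (adjusted p = 0.31), 36 hpf replicate 1 (0.218) or 36 hpf replicate 2 (0.0731). adam19a, a sheddase of the meltrin type, was among the 2 members that rose, at 8.24 and 14.5 FPKM at 3 dpf, against 3.37 and 4.86 FPKM at 36 hpf (1.24 ± 0.41, adjusted p = 0.0249). It was lost without HSPC 36 hpf replicate 1 (adjusted p = 0.153) or 3 dpf replicate 2 (0.194). The other was adam8b, at 3.05 and 6.89 FPKM at 3 dpf, against 2.61 and 0.87 FPKM at 36 hpf (1.12 ± 0.40, adjusted p = 0.0347), a call lost without HSPC 36 hpf replicate 2 or 3 dpf replicate 2, at adjusted p up to 0.33. In libraries labelled EC timp2a was lower too, at 3.34 and 3.89 FPKM at 3 dpf, against 8.69 and 10.5 FPKM at 36 hpf (-1.20 ± 0.29, adjusted p = 0.00585), a call lost without EC 36 hpf replicate 2 (adjusted p = 0.0661). Of the 22 calls in HSPC 12 were kept without each library, and of the 17 in EC 11.

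Markers of tail tissues fell in the same comparisons. Epidermis markers summed to 159 and 149 FPKM in libraries labelled HSPC at 3 dpf, against 11873 and 12878 FPKM at 36 hpf, and to 299 and 319 FPKM in libraries labelled EC at 3 dpf, against 6099 and 7596 FPKM at 36 hpf. Mesenchyme markers summed to 19.3 and 37.4 FPKM in libraries labelled HSPC at 3 dpf, against 1084 and 1075 FPKM at 36 hpf, and to 81.1 and 106 FPKM in libraries labelled EC at 3 dpf, against 759 and 823 FPKM at 36 hpf. twist1a and lum were at 0 in both libraries labelled HSPC at 3 dpf. Of the 6 epidermis markers 6 fell in HSPC and 6 in EC, and of the 6 mesenchyme markers 6 and 5. Their part in the members' falls was not tested.

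At 4 dpf the 4 reporter libraries are given singly. adam8a was at 7.73 and 6.16 FPKM in libraries labelled HSPC and 28.8 and 193 FPKM in those labelled EC, against 1.72 and 2.7 FPKM in DN libraries. timp2b was at 1.54 and 13.1 FPKM in libraries labelled HSPC and 15.3 and 93.8 FPKM in those labelled EC, against 8.54 and 6.46 FPKM in DN libraries. The higher value of each pair labelled EC came from replicate 2, in which 4 members were above 0. adam23a was at 0.461 and 0 FPKM in libraries labelled HSPC and 0.81 and 0 FPKM in those labelled EC, against 59 and 61.5 FPKM in DN libraries.

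In the adult kidney marrow timp4.2, a TIMP4-type inhibitor, was the leading member. It was at 119.8 and 52.6 FPKM in kidney HSPC libraries, against 14.4 and 39.4 FPKM in kidney DN libraries, and was listed at 0 in every tail library at 3 dpf labelled HSPC and in DN libraries at 3 and 4 dpf. With tail libraries set to the floor of 3 reads, it was 260-fold higher in kidney HSPC libraries than in tail libraries labelled HSPC at 3 dpf. It was 100-fold higher in kidney DN libraries than in tail DN libraries at 4 dpf. These folds too are not lower bounds. Within the kidney the HSPC and DN libraries did not overlap, but the call (1.69 ± 0.48, adjusted p = 0.0201) was lost without kidney HSPC replicate 1 (adjusted p = 0.149) or kidney DN replicate 1 (0.157), and under median-of-ratios scaling (0.0984). timp4.1 and timp4.3, its neighbours in RefSeq's gene order, stayed far lower, with timp4.3 at 7.23 and 1.4 FPKM in kidney HSPC libraries, against 0.62 and 2.99 FPKM in kidney DN libraries. How reads were assigned among these neighbouring genes was not tested.

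Between the kidney populations, 7 members were higher and 1 lower in HSPC than in DN libraries (5 and 4 under median-of-ratios scaling), with 21.4% of all genes called (13.5% higher and 7.96% lower). That scaling moved the median of all genes by -0.35, so sizes hold relative to it. adam8a was at 29.2 and 32.9 FPKM in kidney HSPC libraries, against 0.485 and 7.42 FPKM in kidney DN libraries (3.18 ± 0.60, adjusted p = 0.00151). adamts1 was at 21.3 and 11.3 FPKM in kidney HSPC libraries, against 1.37 and 2.97 FPKM in kidney DN libraries (2.43 ± 0.44, adjusted p = 0.000938). timp2a was at 12.2 and 11.7 FPKM in kidney HSPC libraries, against 2.44 and 3.22 FPKM in kidney DN libraries (1.77 ± 0.29, adjusted p = 0.000451). None of these 3, picked as called, overlapped between the populations. mmp17a was the member called lower, at 0.425 and 0.62 FPKM in kidney HSPC libraries, against 6.28 and 1.61 FPKM in kidney DN libraries (-1.52 ± 0.45, adjusted p = 0.0233), and that call was lost without either kidney HSPC library or kidney DN replicate 1, at adjusted p up to 0.198. Neutrophil markers summed to 4211 and 7384 FPKM in kidney HSPC libraries, against 783 and 5426 FPKM in kidney DN libraries, and thrombocyte markers to 197 and 130.4 FPKM, against 37.2 and 97.2 FPKM. No marker of these lists was at 0 in both libraries of a kidney group, and their part was not tested.

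Set against the tail, age, organ and sort differ together and cannot be told apart. Kidney HSPC libraries had 12 members higher and 0 lower than tail libraries labelled HSPC at 3 dpf (8 and 1 under median-of-ratios scaling, which moved the median of all genes by -0.29), with 27.8% of all genes called (25.6% higher and 2.19% lower). timp2a was at 12.2 and 11.7 FPKM in kidney HSPC libraries, against 1.17 and 1.63 FPKM in the tail (2.44 ± 0.29, adjusted p = 3.63e-05). timp2b was at 32.7 and 19.1 FPKM in kidney HSPC libraries, against 0.588 and 3.08 FPKM in the tail (3.36 ± 0.67, adjusted p = 0.00201). All 3 inhibitors called, timp4.2 included, were thus higher with no overlap. The calls of adamts1 (1.75 ± 0.44, adjusted p = 0.00777) and adam8b (1.48 ± 0.40, adjusted p = 0.012) were lost without kidney HSPC replicate 1 (adjusted p = 0.0629 and 0.0649), that of adamts1 also without tail HSPC replicate 2 (0.112) and that of adam8b without tail HSPC replicate 1 (0.122).

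Kidney DN libraries had 5 members higher and 18 lower than tail DN libraries at 4 dpf, with 43.4% of all genes called (18.7% higher and 24.7% lower). The lower ones included mmp2, mmp14a, mmp14b, mmp30, adam11, adam22, adam23a and mmp24, picked as called. Other members that fell in DN libraries from 52 hpf to 3 dpf were not all lower here. The mean of mmp11b was 1.28 FPKM in kidney DN and 0.484 FPKM in tail DN libraries at 4 dpf. That of timp2b was 9.26 and 7.5 FPKM. The call of mmp2 (-1.39 ± 0.51, adjusted p = 0.035) was lost without DN 4 dpf replicate 1 (log2 fold change -1.11) or replicate 2 (-1.66). It was also lost without kidney DN 3 mpf replicate 1 (-0.82). Of the 23 calls 19 were kept without each single library, and the others lost were adam8b, mmp17a and mmp28. adam23a was at 0 and 2.53 FPKM in kidney DN libraries, against 59 and 61.5 FPKM in tail DN libraries (-5.03 ± 0.52, adjusted p = 8.48e-07). mmp30 and adamtsl7 were listed at 0 in both kidney DN libraries, or 79.8-fold and 73.8-fold lower when set to the floor of 3 reads. mmp19 was listed at 0 in both tail DN libraries at 4 dpf and was at 1.64 and 10 FPKM in kidney DN libraries, with a mean 37.7-fold above that floor. Neural markers summed to 2.72 and 5.9 FPKM in kidney DN libraries, against 1550 and 1421 FPKM in tail DN libraries, and mesenchyme markers to 5.92 and 13.1 FPKM, against 872 and 920.2 FPKM. Of skeletal muscle markers 6 of 6 were lower and of epidermis markers 5 of 6, while 4 of 6 neutrophil and 4 of 6 macrophage markers were higher. Their part was not tested.

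Some sheddases gave few calls or none. adam17a, which in mammals releases TNF and other ligands, and its paralog adam17b were called in none of the comparisons. adam17a was at 9.58 and 5.52 FPKM in libraries labelled HSPC at 3 dpf and 10.7 and 7.15 FPKM in those labelled EC, against 10.8 and 9.14 FPKM in DN libraries. adam10a was called in 1 comparison, lower in DN libraries at 3 dpf, at 15.8 and 19.2 FPKM, than at 52 hpf, at 39.5 and 37.6 FPKM (-1.10 ± 0.35, adjusted p = 0.0242). That call was lost without any 1 of the 4 libraries, at adjusted p from 0.0591 to 0.138. A p that misses the threshold does not show that levels were equal. Of the 24 members under 5 FPKM in every group mean, 12 were called in at least 1 comparison. The share of all genes, or of genes at such levels, called in at least 1 comparison is not given. That count by itself thus says nothing about these members. Over all 24, called or not, the highest group mean ranged from 0.218 FPKM (mmp20a, not tested) to 4.98 FPKM (mmp28).

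Other genes of matrix proteolysis were read from a list of 37, of which 33 were in the table and 28 tested. It holds activating proteases, inhibitors and substrates, and also other proteases and hyaluronidases, among them mmp9 and mmp13a. In DN libraries 8 were higher and 0 lower at 52 than at 36 hpf, where 4.79% of all genes were higher and 5.77% lower. From 52 hpf to 3 dpf 1 was higher and 11 lower, where 18% of all genes were higher and 10.8% lower. The proteases mmp9, mmp13a and ctsk are counted in both, higher at 52 than at 36 hpf and lower at 3 dpf. Among the inhibitors reck, a membrane inhibitor of MMPs, was at 3.48 and 3.61 FPKM at 3 dpf, against 18.8 and 19 FPKM at 52 hpf (-2.13 ± 0.36, adjusted p = 0.000392). vcanb, a versican and so a type of ADAMTS substrate, was at 25.8 and 13.5 FPKM at 3 dpf, against 167 and 129.6 FPKM at 52 hpf (-2.91 ± 0.39, adjusted p = 8.58e-05). Against DN at 3 dpf, 5 of the list were higher and 4 lower in libraries labelled EC, with 15.2% and 23.8% over all genes. In libraries labelled HSPC 1 was higher and 6 lower, with 14.1% and 31.4% over all genes. At 3 dpf vcanb was also lower in libraries labelled HSPC, at 0.0182 and 1.12 FPKM, against 25.8 and 13.5 FPKM in DN libraries (-3.74 ± 0.39, adjusted p = 7.95e-07). furinb, of the furin type that activates membrane-type MMPs and ADAMs, was at 1.39 and 2.28 FPKM in libraries labelled HSPC and 2.76 and 3.37 FPKM in those labelled EC, against 19.7 and 18.9 FPKM in DN libraries (-2.86 ± 0.37, adjusted p = 7.6e-06 for HSPC). Its paralog furina lay the other way, at 7.11 and 6.87 FPKM in libraries labelled HSPC and 9.02 and 5.33 FPKM in those labelled EC. In DN libraries furina was at 3.31 and 3.66 FPKM. It was not called against DN for HSPC or EC, as neither log2 fold change reached 1.

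Whether a group's difference from another changed between the stages was asked after the data had been seen. For HSPC minus DN, 3 dpf minus 36 hpf, 2 members were called higher and 15 lower, with 31.3% of all genes called (9.08% higher and 22.2% lower). For EC minus DN 1 was called higher and 9 lower, with 16.3% of all genes called (4.53% higher and 11.8% lower). For HSPC minus EC 1 was called higher, timp4.1 (1.79 ± 0.39, adjusted p = 0.0208), a call lost without 7 of the 8 libraries, at adjusted p up to 0.119 and kept without HSPC 36 hpf replicate 1, and 0 lower, with 2.43% of all genes called (0.392% higher and 2.04% lower). In EC minus DN adam8b had the positive value (2.70 ± 0.57, adjusted p = 0.00645): it was below DN at 36 hpf and above DN at 3 dpf in every library labelled EC.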

How the data were processed

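The table holds FPKM values for 25067 genes in 24 libraries, as deposited by the authors. Per the labels' protocols, RNA of sorted cells was isolated with RNeasy Mini and libraries were made with NEBNext Ultra. Tools listed in the submitters' processing notes, without versions or roles, are HISAT, HTSeq, FastQC and DESeq2, and the build is GRCz10. Values were whole multiples of 1 read for 23718 of 23718 genes above 0 in at least 3 libraries (within 0.01 reads), which gave the read numbers. Genes reaching 1 FPKM in 2 or more of 20 libraries were fitted as log2(FPKM + 1) with limma 3.58.1 (trended prior, R 4.3.3), with 10 groups, 10 residual degrees of freedom and Benjamini-Hochberg adjustment over 20931 genes. HSPC and EC at 4 dpf were left out of the fit because of their libraries with few genes. Figures were drawn with matplotlib 3.10.9 (Python 3.11.15) and tables with numpy 2.4.6. Steps were tested on simulated data. Values are given for called members with a group mean of at least 5 FPKM. In each comparison up to 10 called members a direction are eligible to be named, by log2 fold change, with any called TIMP. Members outside that rule that are named (adam8b in HSPC, adam10a and mmp19 among them) and the listed partners were chosen after their values were seen. The members and lists were chosen with earlier results of these data known. Alternatives were a pseudocount of 0.1, no filter, median-of-ratios scaling, limma-voom on recovered reads, all 24 libraries, only the groups compared, a replicate block and each library left out. Sequences were not used here.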

Additional observations from a re-analysis of the deposited data

Results flagged for a closer look

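Whether the difference from DN changed between 36 hpf and 3 dpf was tested in the same limma fit as a difference of differences, added after the data had been seen, with Benjamini-Hochberg adjustment over all genes. A positive value means that the difference from DN was more positive at 3 dpf. For libraries labelled HSPC minus DN, 2 members were called higher and 15 lower, with 31.3% of all genes called. The higher ones had positive values in log2 units, adam8a 2.40 ± 0.86 and adam8b 3.44 ± 0.57. The lower ones were, among the ADAMs, adam11 -3.08 ± 0.68, adam22 -2.48 ± 0.60, adam23a -4.21 ± 0.73, adam28 -2.72 ± 0.53 and adam9 -2.04 ± 0.59, among the MMPs mmp11a -2.77 ± 0.92, mmp14b -1.68 ± 0.53, mmp16b -2.48 ± 0.52, mmp17a -2.74 ± 0.64, mmp17b -3.13 ± 0.50, mmp2 -1.99 ± 0.72 and mmp24 -2.75 ± 0.64, and besides these adamts1 -3.04 ± 0.62, adamtsl7 -2.54 ± 0.49 and timp2a -3.43 ± 0.41. adam28, adam11, mmp11a, mmp16b, mmp17a and mmp17b were listed at 0 in both libraries labelled HSPC at 3 dpf, so their values depend on the pseudocount. The call of adam8a was lost without HSPC 36 hpf replicate 1 (0.0602), HSPC 36 hpf replicate 2 (0.13), DN 36 hpf replicate 2 (0.171), HSPC 3 dpf replicate 1 (0.0606), HSPC 3 dpf replicate 2 (0.106) or DN 3 dpf replicate 1 (0.148), where the numbers in brackets are adjusted p. That of adam9 was lost without HSPC 36 hpf replicate 1 (0.0618) or HSPC 3 dpf replicate 2 (0.0524), that of mmp2 without HSPC 36 hpf replicate 1 (0.0873), HSPC 36 hpf replicate 2 (0.113), DN 36 hpf replicate 1 (0.125), DN 36 hpf replicate 2 (0.0815), HSPC 3 dpf replicate 2 (0.131) or DN 3 dpf replicate 1 (0.167), that of mmp11a without HSPC 36 hpf replicate 1 (0.115), DN 36 hpf replicate 1 (0.0882), DN 36 hpf replicate 2 (0.0634), HSPC 3 dpf replicate 1 (0.063), HSPC 3 dpf replicate 2 (0.0633) or DN 3 dpf replicate 1 (0.112) and that of mmp14b without HSPC 36 hpf replicate 1 (0.0632), HSPC 36 hpf replicate 2 (0.0587), DN 36 hpf replicate 2 (0.0863), HSPC 3 dpf replicate 1 (0.0674) or DN 3 dpf replicate 2 (0.0774). The calls of the other members given in this paragraph were kept when each of the 8 libraries was left out in turn.

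For libraries labelled EC minus DN, 1 member was called higher and 9 lower, with 16.3% of all genes called. The higher one was adam8b (2.70 ± 0.57). The lower ones were adam11 -2.64 ± 0.68, adam22 -2.43 ± 0.60, adam23a -2.66 ± 0.73, mmp16b -2.01 ± 0.52, mmp17b -3.21 ± 0.50, mmp24 -1.95 ± 0.64, mmp28 -2.13 ± 0.53, timp2a -2.85 ± 0.41 and timp4.1 -1.78 ± 0.39. The largest adjusted p among called members was 0.0457 for HSPC and 0.0476 for EC. Calls were lost for mmp24 without EC 36 hpf replicate 1 (0.127), EC 36 hpf replicate 2 (0.112), DN 36 hpf replicate 1 (0.109), DN 36 hpf replicate 2 (0.132), EC 3 dpf replicate 1 (0.153), EC 3 dpf replicate 2 (0.0638), DN 3 dpf replicate 1 (0.113) or DN 3 dpf replicate 2 (0.108). That of adam23a was lost without EC 36 hpf replicate 1 (0.0606), EC 36 hpf replicate 2 (0.0754), DN 36 hpf replicate 1 (0.0613), DN 36 hpf replicate 2 (0.0781), EC 3 dpf replicate 1 (0.0958), DN 3 dpf replicate 1 (0.0675) or DN 3 dpf replicate 2 (0.0567), that of adam11 without EC 36 hpf replicate 2 (0.0642), DN 36 hpf replicate 1 (0.0651), EC 3 dpf replicate 1 (0.0833) or DN 3 dpf replicate 2 (0.054), that of adam22 without EC 36 hpf replicate 1 (0.057), DN 36 hpf replicate 2 (0.0574), EC 3 dpf replicate 1 (0.0609) or DN 3 dpf replicate 1 (0.0511), that of mmp16b without EC 36 hpf replicate 1 (0.079), DN 36 hpf replicate 2 (0.0627), EC 3 dpf replicate 1 (0.064) or DN 3 dpf replicate 2 (0.0586) and that of mmp28 without EC 36 hpf replicate 1 (0.0591), DN 36 hpf replicate 1 (0.0571) or EC 3 dpf replicate 1 (0.0682). For HSPC minus EC timp4.1 had 1.79 ± 0.39, with the call lost without HSPC 36 hpf replicate 2 (0.119), EC 36 hpf replicate 1 (0.0903), EC 36 hpf replicate 2 (0.0736), HSPC 3 dpf replicate 1 (0.0575), HSPC 3 dpf replicate 2 (0.0561), EC 3 dpf replicate 1 (0.0849) or EC 3 dpf replicate 2 (0.0582). HSPC minus DN and EC minus DN share the DN libraries, and in DN libraries several of these members differed between stages.

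In the 4 dpf libraries left out of the tests, timp4.2 was at 9.84 FPKM in replicate 1 labelled HSPC and 9.19 FPKM in replicate 1 labelled EC, against 0 in both DN libraries of that stage, and was listed at 0 in both replicate 2 libraries.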

How the results depend on the processing

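No member named in the text reversed in any alternative run, but the number of members called moved by over 1.5 times in several comparisons, and the cause was not tested. For EC against DN at 36 hpf it was 10 as reported, 1 with a pseudocount of 0.1, 5 with all 24 libraries, 6 by limma-voom and 18 with only the groups compared. For HSPC against DN at 36 hpf the values were 14, 8, 5 and 9 under the first 4 of these. HSPC against EC at 36 hpf gave 3, with 1 at the smaller pseudocount, 1 with all libraries and 7 with only its groups. HSPC against EC at 3 dpf gave 4, with 11 at the smaller pseudocount, 0 with all libraries, 15 by limma-voom and 0 with only its groups. DN at 52 against 36 hpf gave 14, with 1 at the smaller pseudocount, 9 with no filter and 2 with all libraries. DN at 3 dpf against 52 hpf gave 25 and 14 at the smaller pseudocount. The 1 call of DN at 4 against 3 dpf was 0 at the smaller pseudocount, with no filter, with all libraries and by limma-voom. Kidney HSPC against DN gave 8, with 4 with all libraries and 1 with only its groups, and kidney against tail HSPC gave 12, with 21 at the smaller pseudocount, 24 by limma-voom and 4 with only its groups. Shares over all genes are not given for counts under alternatives, in this section or above. Such counts do not show whether the members moved or calls over all genes did.

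Leaving out 1 library at a time, where the lone sample left is assumed to vary like the other groups, gave 1 to 2 calls for EC and 6 to 7 for HSPC against DN at 36 hpf, 1 to 1 for HSPC against EC at 36 hpf, 14 to 16 for EC and 16 to 19 for HSPC against DN at 3 dpf, 2 to 5 for HSPC against EC at 3 dpf, 11 to 15 for EC and 13 to 19 for HSPC at 3 dpf against 36 hpf, 0 to 3, 19 to 21 and 0 to 0 for the DN stages in turn, and 6 to 18, 7 to 13 and 22 to 28 for kidney HSPC against DN, kidney against tail HSPC and kidney against tail DN. Replicate numbers were not shown to pair the libraries (correlations from -0.339 to 0.269), and a replicate block gave 11, 14, 3, 16, 18, 5, 17, 23, 15, 25, 1, 8, 12 and 23 calls in the same order. Median-of-ratios scaling ended the calls of adam8b (adjusted p = 0.069) and adam19a (0.0725) in HSPC at 3 dpf against 36 hpf. In kidney against tail HSPC it ended those of adam8b (0.0748), adam9 (0.106) and mmp11a (0.0821). Those of mmp17a ended in DN at 3 dpf against 52 hpf (0.101), kidney against tail DN (0.0811) and HSPC against DN at 36 hpf (0.0506). The calls of adamts1 and timp4.2 given in the report ended too. With 2 libraries a group and values of low members within a few reads, absent calls are not evidence of equal levels.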
